A study of Mus musculus with 12 samples.

Results

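Microglia are the resident macrophages of the brain, and 10 genes of their identity and activation are described here in the hippocampus of mutant and control mice. For the mutants, the series title names the loss of the transcription factors CREB and CREM. Which cells lost these factors is not given in the sources used here. The genes were taken by name: every probe set that the platform annotation gave exactly 1 symbol, with that symbol among the 10, was a member. This gave 15 probe sets of 12422 tested, and all 10 genes had at least 1. The list was chosen by name after earlier results had shown mutant minus control differences in microglial genes. Those measured differences are given as a description; numbers of members past a threshold are printed beside the share of all probe sets, and nothing is read from them. The effects of kainate, and their difference between genotypes, did not enter the choice and were tested.

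Hippocampal RNA was measured on 12 Affymetrix mouse arrays in 4 groups of 3. These were mutants given kainate, mutants given saline, controls given kainate and controls given saline. Kainate, a glutamate receptor agonist that evokes seizures, was injected into the peritoneum at 20 mg/kg, and tissue was taken 1 hour after injection. The animals were littermates of both sexes, 5 to 6 weeks old and housed singly, and each array carried RNA pooled from 3 of them, so that a replicate is a pool. The series title names the loss of CREB and CREM, while the alleles, the cells in which they were disrupted and the strain are not given in the sources used here. Values are log2 expression from GCRMA, a method that corrects background by probe sequence.

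A few facts of the whole series bear on the values below. The 3 Creb1 probe sets were dim, at 2.84 to 3.94 in mutants and 2.86 to 4.34 in controls, as were the 2 Crem probe sets, at 2.60 to 4.33 in mutants and 2.65 to 4.80 in controls. Creb1 differed by -0.12 to -0.09 and Crem by -0.29 to -0.25 between mutants and controls, and none passed in limma (lowest adjusted p = 0.141 for Crem and 0.63 for Creb1). Their position on the disrupted genes is unknown, and they do not check the loss. The interquartile range of the control kainate replicate 3 array was 3.74, against 4.40 to 4.61 on the other 11 arrays. Arrays of the same replicate number tended to deviate together from their group means. Their correlations across probe sets were 0.368 to 0.848 for replicate 1, 0.302 to 0.583 for replicate 2 and -0.01 to 0.621 for replicate 3.

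Microglia depend on signals through CSF1R, the receptor for colony stimulating factor 1, and carry CX3CR1, the receptor for the neuronal chemokine fractalkine. Both are called homeostatic here because they mark the resting cell. Activated microglia are known to make more lysozyme (Lyz2), more of the lipopolysaccharide co-receptor CD14 and more CD52, a small glycoprotein anchored in the membrane of leukocytes. Tyrobp and Fcer1g encode adaptors with an immunoreceptor activation motif, Mpeg1 a pore-forming protein of macrophages, Laptm5 a lysosomal membrane protein of blood cells, and Aif1 the actin-binding protein IBA1.

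The promoters of 4 members are shown because their genes differ in the mutants in different ways: Lyz2, Laptm5 and Mpeg1 stood higher there under both treatments and Cx3cr1 did not. Cx3cr1 was dim on every array, which limits this contrast. Each window runs from 250 bases before to 50 bases after the gene's start, on the gene's strand, in GRCm38.p6 from RefSeq. Lyz2 lies at chr10:117282223-117282522 (minus strand), Laptm5 at chr4:130913066-130913365 (plus), Mpeg1 at chr19:12460520-12460819 (plus) and Cx3cr1 at chr9:120068247-120068546 (minus). Capitals mark matches on either strand to GAGGAA, a core bound by PU.1, the factor of myeloid identity, or to AGGAAGT, a core of the wider ETS family to which PU.1 belongs.
Lyz2: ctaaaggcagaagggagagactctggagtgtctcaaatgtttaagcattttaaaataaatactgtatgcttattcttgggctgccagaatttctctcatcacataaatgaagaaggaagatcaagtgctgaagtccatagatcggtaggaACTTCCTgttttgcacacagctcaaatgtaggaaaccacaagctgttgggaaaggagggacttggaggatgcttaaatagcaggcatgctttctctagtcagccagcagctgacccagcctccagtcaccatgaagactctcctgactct
Laptm5: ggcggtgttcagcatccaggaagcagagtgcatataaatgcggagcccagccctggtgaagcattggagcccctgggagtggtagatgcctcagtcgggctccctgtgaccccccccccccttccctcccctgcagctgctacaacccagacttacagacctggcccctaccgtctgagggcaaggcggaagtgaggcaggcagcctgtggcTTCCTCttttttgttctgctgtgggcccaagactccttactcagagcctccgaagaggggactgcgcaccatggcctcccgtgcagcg
Mpeg1: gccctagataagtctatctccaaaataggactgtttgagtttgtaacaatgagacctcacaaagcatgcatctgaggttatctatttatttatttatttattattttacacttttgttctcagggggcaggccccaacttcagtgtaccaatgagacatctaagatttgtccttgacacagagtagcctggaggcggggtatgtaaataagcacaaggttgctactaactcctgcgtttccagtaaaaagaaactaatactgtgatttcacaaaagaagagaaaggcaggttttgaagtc
Cx3cr1: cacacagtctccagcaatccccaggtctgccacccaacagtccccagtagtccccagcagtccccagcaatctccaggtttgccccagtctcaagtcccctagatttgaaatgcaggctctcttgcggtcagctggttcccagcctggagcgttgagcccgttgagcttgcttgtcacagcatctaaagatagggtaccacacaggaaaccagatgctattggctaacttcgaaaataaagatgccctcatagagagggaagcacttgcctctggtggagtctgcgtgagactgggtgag

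Of the 6 member promoters held in the sequence table (those shown, Aif1 and Fcer1g), 2 contained GAGGAA, which 28.3% of 32851 promoter windows contain. These were Laptm5, 38 bases upstream of the start, and Aif1, 7 bases upstream. AGGAAGT was found in Lyz2, 100 bases upstream, and occurs in 9.35% of windows. In all, 9 motifs were searched on both strands, and some of them overlap each other. TATAAA was in Laptm5, against 13.6% of windows, and the other 6 motifs were in none of the 6 windows. These were TGACG, the core of the cAMP response element that CREB binds (20.8% of all windows), TGACGT (7.51%), the full palindromic element (1.79%), TGAGTCA, bound by AP-1 (5.2%), a longer PU.1 site (3.2%) and the NF-kappa B site (0.155%). A match or its absence is a matter of letters in a short window and says nothing of binding.

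For 7 of the 10 genes, every mutant array stood above every control array within each treatment. Averaged over treatments, their differences ran from 0.70 on the log2 scale for Csf1r to 2.32 for Cd52, while Cx3cr1, Aif1 and Fcer1g differed by 1.35-fold or less. The median difference of the 10 genes, each by its brightest probe set, was 0.86 on the log2 scale, and that of all 12422 probe sets was -0.06. In bulk tissue, more cells of a type and more RNA per cell cannot be told apart. Nothing is read from the following counts, since the choice of genes used these contrasts. Averaged over treatments, 8 of the 15 probe sets were higher with adjusted p under 0.05 in limma, where 0.419% of all probe sets were higher and 0.193% lower. The arrays of mutants lay wholly above those of controls for 6 of the 15, against 0.733% of all probe sets. Under kainate 4 of 15 passed (0.217% of all) and 8 of 15 did not overlap (4.03%). Under saline 3 of 15 passed (0.105% of all) and 8 of 15 did not overlap (3.85%).

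**Figure D1:**
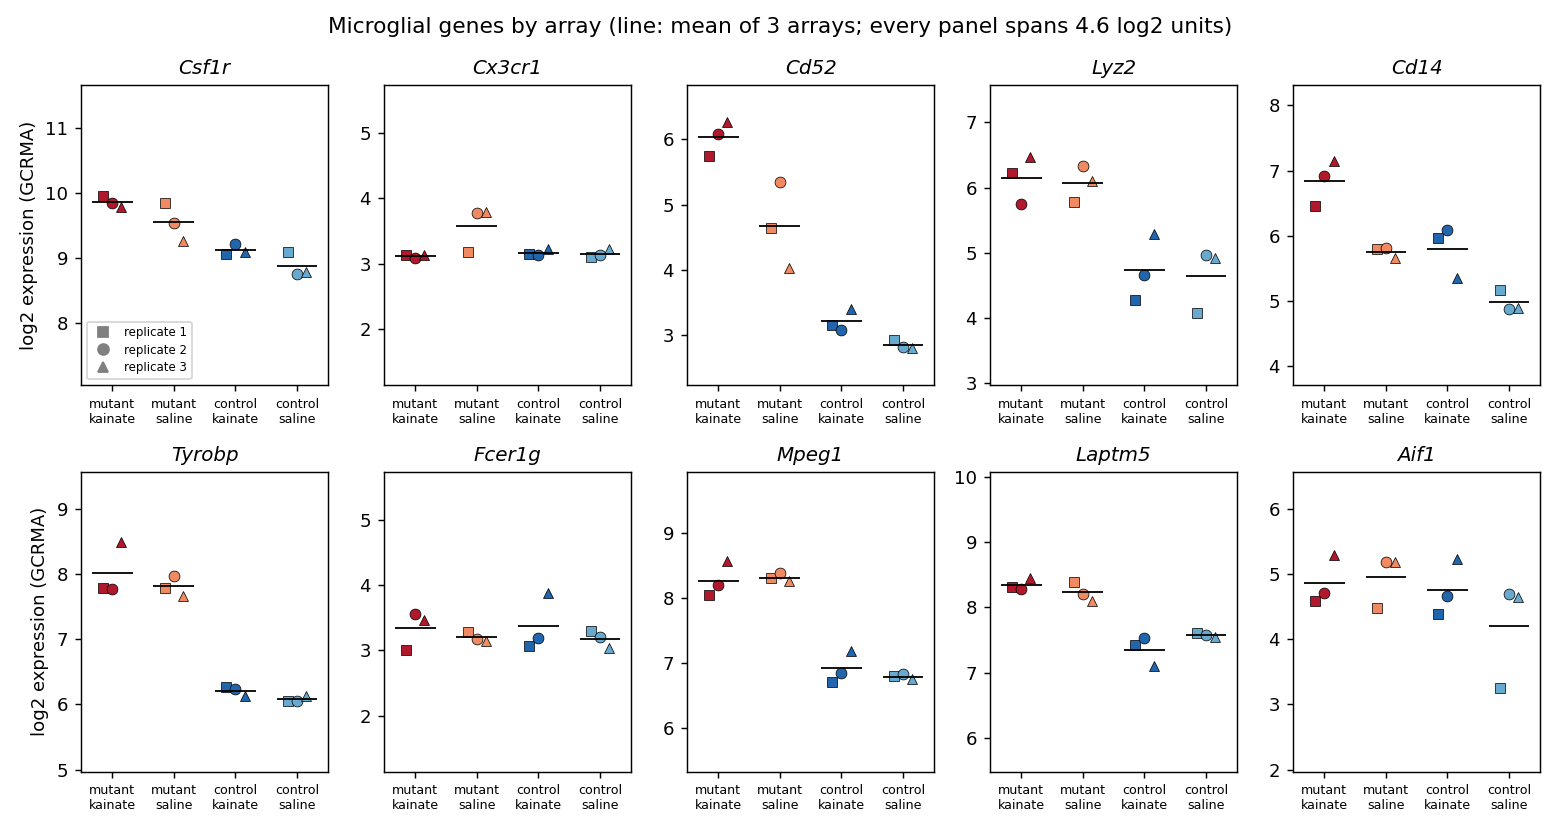
Log2 expression of the 10 genes on each of the 12 arrays, by the brightest probe set, with groups from left to right mutant kainate, mutant saline, control kainate and control saline; symbols give the replicate number, lines the mean of 3 arrays. Tyrobp, Mpeg1, Laptm5, Cd52, Csf1r and Lyz2 show mutant arrays wholly above control arrays, Cd14 is higher after kainate in both genotypes, and Cx3cr1 and Fcer1g stay low on every array.

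Of the receptors, Csf1r had 9.95, 9.85 and 9.79 in mutant kainate and 9.85, 9.54 and 9.26 in mutant saline arrays, against 9.06, 9.21 and 9.10 in control kainate and 9.10, 8.76 and 8.79 in control saline arrays (log2 expression, as below). Every mutant array lay above every control array, with a difference of 0.70 averaged over treatments (SE 0.10, 6 arrays against 6). A dimmer Csf1r probe set, at 4.63 to 5.99 in mutants and 4.49 to 5.92 in controls, differed by -0.08 (SE 0.15), so the 2 probe sets of this gene do not show the same difference. Cx3cr1 was dim, between 3.09 and 3.79 in mutants and between 3.11 and 3.23 in controls. Its group means were 3.12 ± 0.02 in mutant kainate, 3.58 ± 0.35 in mutant saline, 3.17 ± 0.06 in control kainate and 3.15 ± 0.06 in control saline arrays (SD, n = 3 each). Mutant saline replicates 2 and 3, at 3.78 and 3.79, were the arrays above the others, and replicate 1 of that group stood at 3.18.

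Cd14, the co-receptor through which macrophages sense lipopolysaccharide, had 6.46, 6.91 and 7.14 in mutant kainate and 5.79, 5.81 and 5.66 in mutant saline arrays, against 5.97, 6.09 and 5.35 in control kainate and 5.17, 4.88 and 4.90 in control saline arrays. Within each treatment all mutant arrays were above all control arrays, while over both treatments the genotypes overlapped, with mutant saline arrays between the control kainate arrays. The genotype difference was 0.90 averaged over treatments (SE 0.15).

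The adaptors behaved unlike each other. Tyrobp, which couples receptors such as TREM2 to kinases, had 7.78, 7.76 and 8.48 in mutant kainate and 7.79, 7.97 and 7.66 in mutant saline arrays, against 6.27, 6.24 and 6.13 in control kainate and 6.05, 6.06 and 6.13 in control saline arrays. The genotypes were separated by more than 1 log2 unit on every array, with a mean difference of 1.76 (SE 0.12). Fcer1g, the shared chain of Fc receptors, gave 3.00 to 3.55 in mutants and 3.03 to 3.88 in controls with its brighter probe set. Its difference was -0.01 (SE 0.14), and that of the dimmer probe set -0.05 (SE 0.08); both lie in the lower part of the array, at percentiles 33.8 and 24.2 of mean level.

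The effector genes of macrophages showed differences of several sizes. Cd52 had 5.74, 6.09 and 6.26 in mutant kainate and 4.64, 5.35 and 4.03 in mutant saline arrays, against 3.15, 3.08 and 3.40 in control kainate and 2.93, 2.82 and 2.80 in control saline arrays. Its difference was 2.32 (SE 0.19). The control arrays read 2.80 to 3.40, as low as Cx3cr1 does, so this is a difference from a level near background and not a measured ratio of RNA. Mpeg1 had 8.04, 8.19 and 8.56 in mutant kainate and 8.30, 8.38 and 8.25 in mutant saline arrays, against 6.71, 6.85 and 7.19 in control kainate and 6.80, 6.83 and 6.75 in control saline arrays. It differed by 1.43 (SE 0.10), while a dimmer Mpeg1 probe set differed by -0.13 (SE 0.14).

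Lyz2, the lysozyme of macrophages, had 6.22, 5.75 and 6.47 in mutant kainate and 5.78, 6.33 and 6.09 in mutant saline arrays, against 4.28, 4.66 and 5.29 in control kainate and 4.08, 4.96 and 4.92 in control saline arrays. Its difference was 1.41 (SE 0.22), and no array of the genotypes overlapped. The dimmer Lyz2 probe set, at percentile 9.47 of mean level, differed by -0.08 (SE 0.07). Lyz1 is a near-identical copy of Lyz2, and how far Lyz1 RNA binds these probes was not tested.

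Laptm5 was measured by a pair of bright probe sets that gave like differences between the genotypes. The brighter had 8.31, 8.28 and 8.46 in mutant kainate and 8.39, 8.21 and 8.10 in mutant saline arrays, against 7.42, 7.53 and 7.11 in control kainate and 7.60, 7.59 and 7.55 in control saline arrays. It differed by 0.82 (SE 0.08) and the other by 0.72 (SE 0.13). Aif1 gave 4.59, 4.71 and 5.29 in mutant kainate and 4.48, 5.19 and 5.18 in mutant saline arrays, against 4.39, 4.66 and 5.22 in control kainate and 3.25, 4.69 and 4.65 in control saline arrays. The genotypes overlapped for Aif1, with a difference of 0.43 (SE 0.27).

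The further Csf1r, Mpeg1, Lyz2 and Fcer1g probe sets had mean levels of 5.28, 4.20, 2.05 and 2.85, and each was dimmer than the other probe set of its gene.

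**Figure D2:**
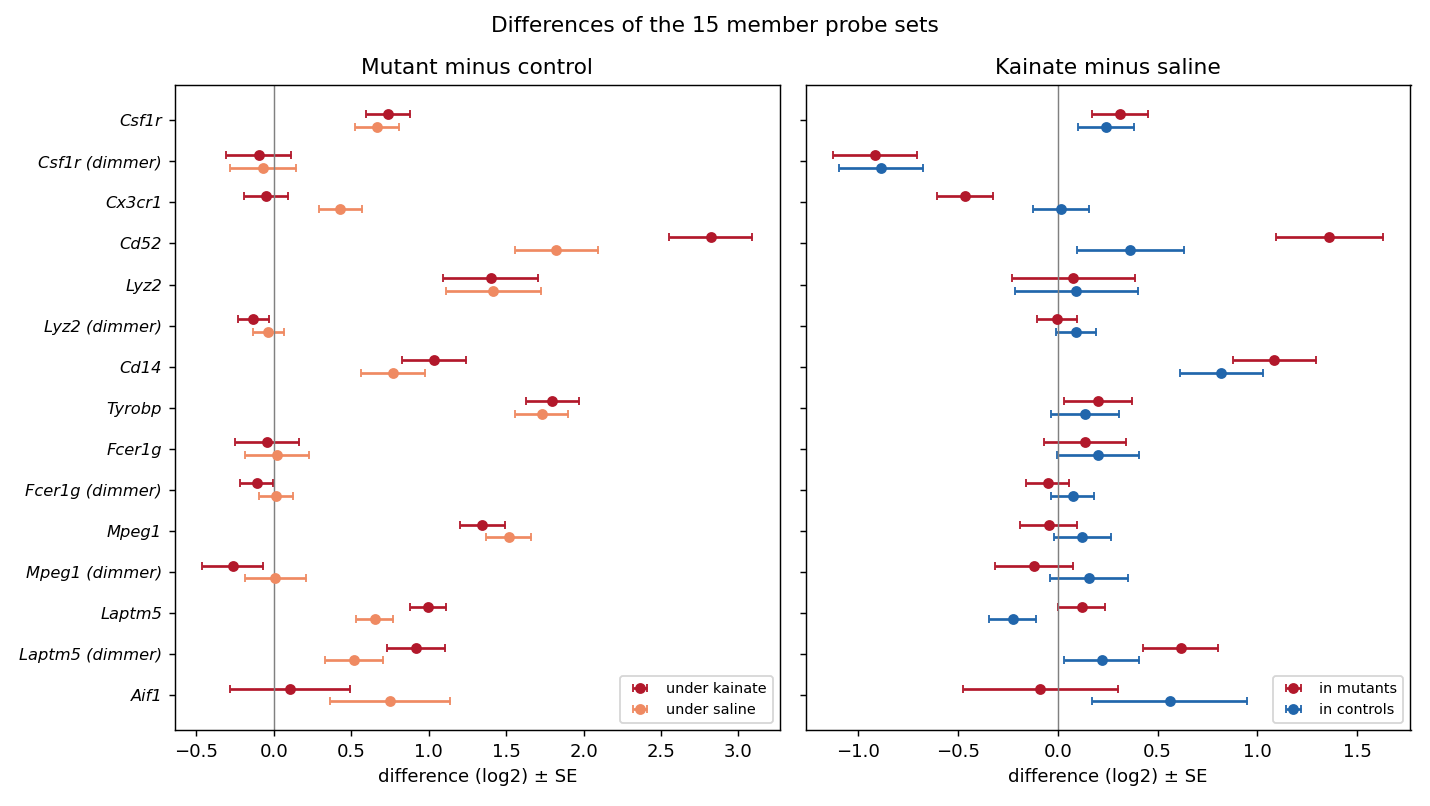
Differences of the 15 member probe sets on the log2 scale, with bars of 1 SE from the limma fit over 12 arrays. The left panel gives mutant minus control under kainate and under saline, the right panel kainate minus saline in mutants and in controls. Cd52 and Tyrobp lie farthest to the right on the left panel, and on the right panel Cd14 lies above 0 and the dimmer Csf1r probe set below 0 in both genotypes.

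Whether kainate altered these genes within 1 hour was asked in each genotype and over both. Averaged over genotypes, Cd14 rose 1.93-fold (log2 0.95, SE 0.15, limma adjusted p = 0.0139), and every kainate array lay above every saline array of its genotype. The dimmer Csf1r probe set fell by 0.90 (SE 0.15, limma adjusted p = 0.0199), again without overlap in either genotype, while the brighter one stood at 0.28 (SE 0.10, limma adjusted p = 0.281). Thus 1 of 15 member probe sets was called higher, against 0.531% of all probe sets, and 1 of 15 lower, against 0.411%. At an unadjusted p under 0.05 there were 6 of 15, against 11.9%. Kainate arrays lay above saline arrays in each genotype for Cd14 and Cd52, 2 of 15 against 1.05% of all probe sets, and below them for the dimmer Csf1r probe set, 1 of 15 against 1.96%. A list of acute cytokines, chemokines and other response genes held 21 measured genes. Of these, Ptgs2, the inducible cyclooxygenase, rose (4.25, limma adjusted p = 1.14e-06) and 20 did not pass, so no cytokine or chemokine was called. Averaged over genotypes, 21 of 21 differences were above 0 (median 0.06), against 7895 of 12422 probe sets. In controls 21 of 21 were above 0, and in mutants 8 of 21. Among the 21, 15 had mean levels under 3.5, where a change could go unseen.

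The Cd14 call was lost without control saline replicate 2 (adjusted p = 0.0503), control saline replicate 3 (0.055) or mutant saline replicate 3 (0.0549), and over all alternatives its adjusted p ran from 4.71e-06 to 0.055, with differences of 0.88 to 1.16 and the lowest p with array weights. The dimmer Csf1r probe set lost its call without control saline replicate 2 (0.0691) or replicate 3 (0.0709), mutant saline replicate 2 (0.0631) or replicate 3 (0.064), or mutant kainate replicate 3 (0.0534), and with quantile normalisation (0.0759).

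Within a genotype no member passed in limma. In mutants, where 0.298% of all probe sets were called, 0 of 15 passed, and 5 of 15 had an unadjusted p under 0.05, against 6.28% of all probe sets. These were Cd14 (1.08, SE 0.21, adjusted p = 0.0867), Cd52 (1.36, SE 0.27, adjusted p = 0.0997), the dimmer Csf1r (-0.92, SE 0.21, adjusted p = 0.227), the dimmer Laptm5 (0.62, SE 0.19, adjusted p = 0.442) and Cx3cr1 (-0.46, SE 0.14, adjusted p = 0.442). The brighter Laptm5 probe set stood at 0.12 in mutants (SE 0.12) and -0.23 in controls (SE 0.12), where the dimmer stood at 0.22 (SE 0.19). The 2 Laptm5 probe sets thus differed in their kainate values. In controls, where 0.33% of all probe sets were called, 0 of 15 passed, and 2 of 15 had an unadjusted p under 0.05, against 7.37% of all probe sets. They were Cd14 (0.82, SE 0.21, adjusted p = 0.303) and the dimmer Csf1r (-0.89, SE 0.21, adjusted p = 0.225). Over both genotypes Tyrobp stood at 0.17, Mpeg1 at 0.04 and Lyz2 at 0.09 after kainate. The 95% intervals ran from -0.10 to 0.44 for Tyrobp, from -0.19 to 0.26 for Mpeg1 and from -0.40 to 0.57 for Lyz2.

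The difference between the kainate effects in mutants and in controls was the test of whether the genotype changed the response. Here 0 of 15 member probe sets passed in limma, and 0% of all probe sets did. At an unadjusted p under 0.05 there were 2 of 15, against 0.861% of all probe sets: Cd52, with a kainate effect larger in mutants by 1.00 (SE 0.38, adjusted p = 0.939), and Cx3cr1, at -0.48 (SE 0.20, adjusted p = 0.939 here, from 0.00221 to 1 over the alternatives). In controls Cd52 lay near background, at 2.80 to 3.40, which limits its comparison. For Cx3cr1, mutant saline replicates 2 and 3 stood above all other arrays. For Cd14 the effects were 1.08 in mutants and 0.82 in controls, a difference of 0.27 with a 95% interval of -0.39 to 0.92. These intervals are wide, so equal responses were not shown.

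The homeostatic and activation genes were then set against each other within each array. Brightness differs between probe sets, so the quantity has no meaning as a level, and its changes between groups are what can be read. The mean of Cd52, Lyz2 and Cd14 minus the mean of Csf1r and Cx3cr1 was -0.15 ± 0.29 in mutant kainate, -1.07 ± 0.22 in mutant saline, -1.56 ± 0.08 in control kainate and -1.86 ± 0.16 in control saline arrays (SD, n = 3 each). The mutants were higher by 1.41 under kainate and by 0.79 under saline, with no overlap of arrays in either, and higher by 1.10 averaged. The activation genes differed by 1.54 and the homeostatic pair by 0.45. The pair rests on Csf1r, since Cx3cr1 lay near the low end of the array; with Csf1r alone as the homeostatic gene the averaged difference was 0.84.

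**Figure D3:**
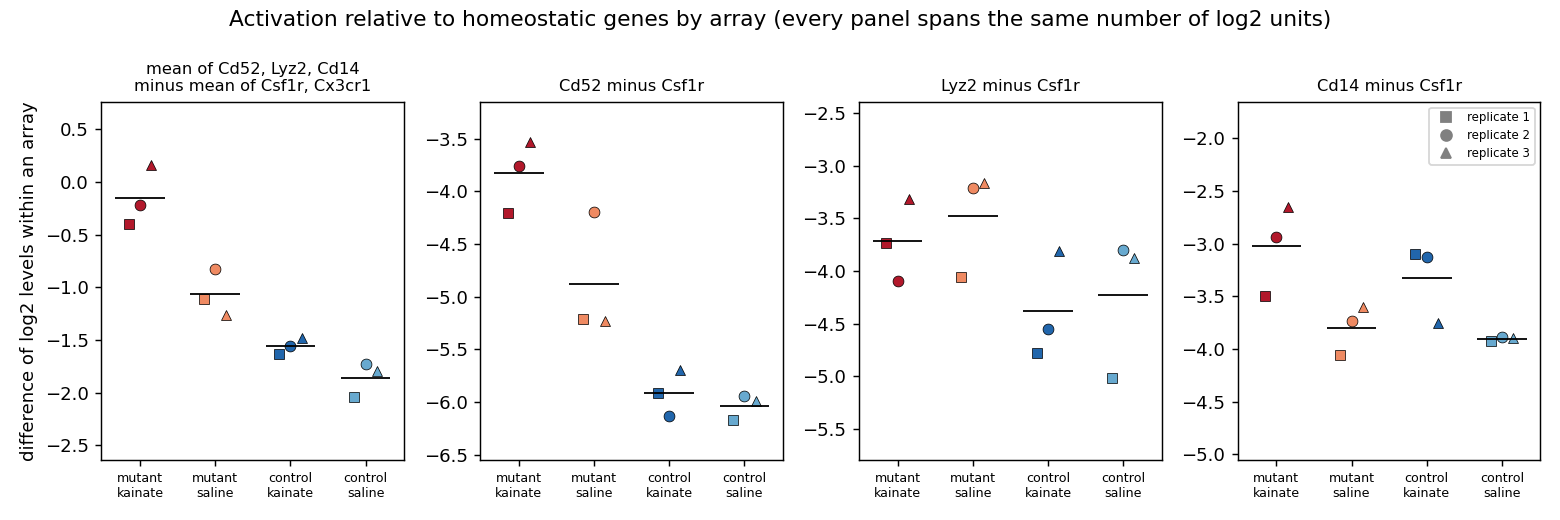
Activation genes relative to homeostatic genes on each array, as differences of log2 levels, with groups from left to right mutant kainate, mutant saline, control kainate and control saline; symbols give the replicate number and lines the mean of 3 arrays. Cd52 minus Csf1r separates mutants from controls, while Lyz2 minus Csf1r and Cd14 minus Csf1r overlap between them.

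The 3 activation genes did not do the same thing. Relative to Csf1r, Cd52 was higher in mutants by 1.62 averaged over treatments, Lyz2 by 0.71 and Cd14 by 0.20. The Cd52 value is limited because Cd52 lay near background in controls. Cd52 minus Csf1r was -3.83 ± 0.34 in mutant kainate and -4.88 ± 0.59 in mutant saline, against -5.91 ± 0.22 in control kainate and -6.04 ± 0.12 in control saline arrays (SD, n = 3 each), without overlap between genotypes. After kainate, Cd14 relative to Csf1r was higher by 0.77 in mutants and by 0.58 in controls. For Lyz2 relative to Csf1r the kainate difference was -0.23 in mutants and -0.15 in controls, and the arrays overlapped.

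Variation between the pools of a group gave another view of the 10 genes. Over the levels of the 12 arrays, the 7 genes higher in mutants had pairwise Pearson correlations of 0.546 to 0.977 (21 pairs), in which the genotype difference is included. Over deviations from the group means the same pairs had a median of 0.224, and 15 of 21 were positive. Lyz2 and Aif1 deviated together (r = 0.896), as did Mpeg1 and Fcer1g (0.779), Laptm5 and Cd14 (0.759), and Mpeg1 and Lyz2 (0.598). With replicates 2 and 3 only, these pairs stood at 0.973, 0.576, 0.992 and 0.995. The homeostatic genes Csf1r and Cx3cr1 had the lowest correlation of all pairs (-0.754). Csf1r was also negative with Aif1 (-0.715) and Lyz2 (-0.458), Laptm5 with Cx3cr1 (-0.596), and Cd14 with Lyz2 (-0.493). With replicates 2 and 3 only, these were -0.331 for Csf1r and Cx3cr1, -0.373 for Csf1r and Aif1, and -0.149 for Csf1r and Lyz2. They were -0.628 for Laptm5 and Cx3cr1 and -0.341 for Cd14 and Lyz2. The lowest pair there was Cd14 and Fcer1g, at -0.937, and the median of the 21 pairs was 0.461. Control kainate replicate 3, the array with the narrow interquartile range, had the largest deviations in size of Cd14 (-0.45), Laptm5 (-0.25) and Fcer1g (0.50). How far the pairs of these genes rest on that array was not tested. The correlations over all arrays describe 12 arrays. Those with replicates 2 and 3 only rest on 2 arrays per group, whose deviations are equal and opposite. Few independent values then enter each correlation, so values near 1 or -1 come easily. The genes share the same pools and the same background correction.

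**Figure D4:**
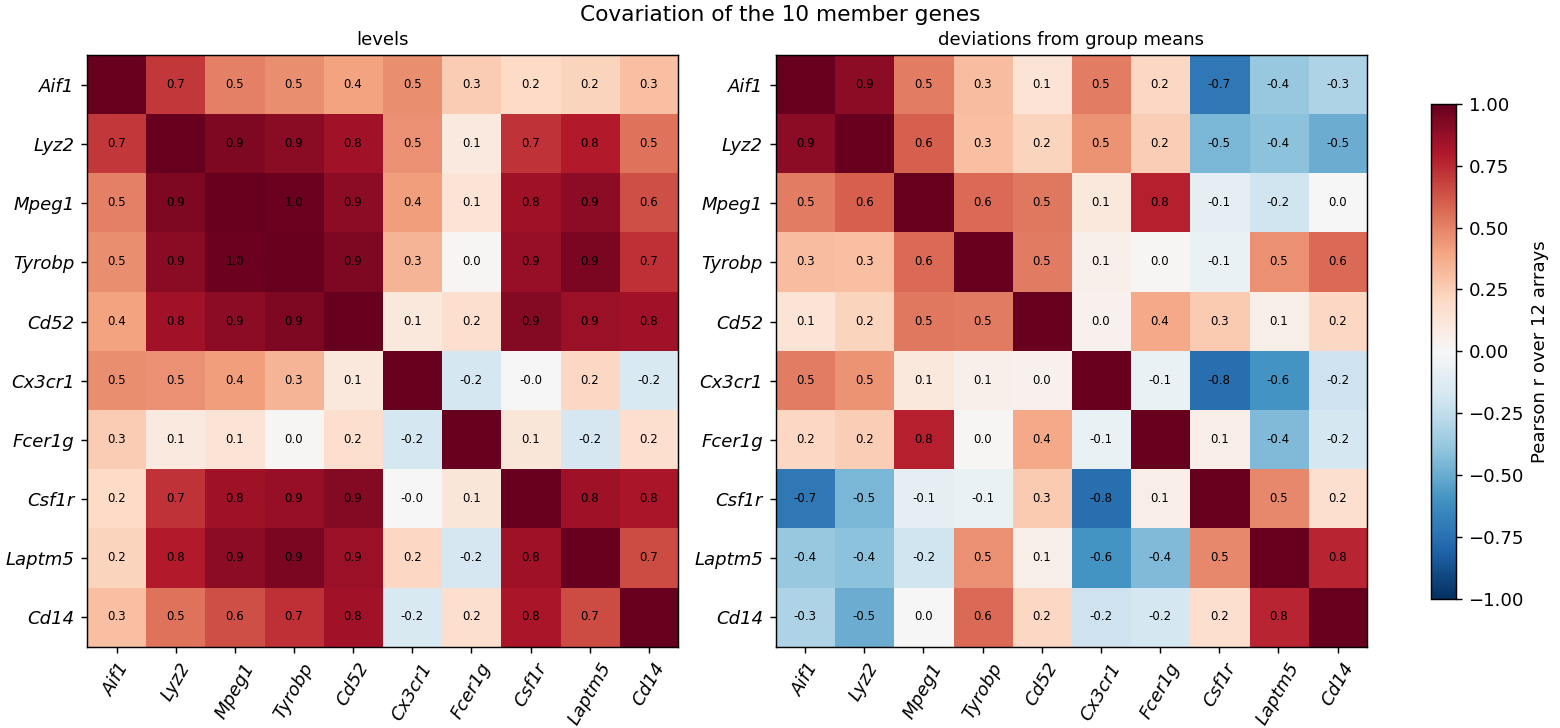
Pearson correlations over the 12 arrays between the 10 genes, for levels (left) and for deviations from the 4 group means (right); red is positive and blue negative. The block of high correlations among levels is not kept among deviations, where Aif1 and Lyz2 go together and Csf1r goes against Aif1 and Cx3cr1.

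Replicate number moved with these deviations. Aif1 lay below its group mean on 4 of 4 replicate 1 arrays, by 0.51 on average, and above it on 4 of 4 replicate 3 arrays, by 0.39. Lyz2 averaged -0.31 on replicate 1 and 0.29 on replicate 3 arrays, and Csf1r 0.13 on replicate 1 and -0.12 on replicate 3 arrays. With only replicates 2 and 3 the averaged genotype differences were 1.83 for Tyrobp, 1.44 for Mpeg1, 2.41 for Cd52, 1.20 for Lyz2, 1.08 for Cd14, 0.82 for Laptm5 and 0.64 for Csf1r. Replicate 1 holds 1 array per group, which gives no spread of its own. The kainate effect on Cd14, with replicates 2 and 3 only, was 1.06 (limma adjusted p = 0.0151).

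Beyond the 10 members, 25 of 41 further microglial identity genes were measured. This list and the lists below were chosen with earlier results of these data known. Their genotype counts are therefore a description, and nothing is read from them. Averaged over treatments, 3 of the 25 were higher in mutants, 0 were lower and 22 did not pass in limma. The median was 0.15, and 0.419% of all probe sets were called higher. The 3 were Ctss, the protease cathepsin S (0.91, adjusted p = 0.00208), Cd53, a tetraspanin of leukocytes (0.83, adjusted p = 0.0189), and Itgb5, an integrin chain (0.55, adjusted p = 0.00968). Ly86, a partner of a toll-like receptor relative (1.94, adjusted p = 0.0587), and Cd68, a lysosomal glycoprotein of macrophages (1.35, adjusted p = 0.13), had larger differences and did not pass. Other defining genes were very dim, with mean levels of 1.48 for Spi1, which encodes PU.1, and 2.44 for Itgam, an integrin chain.

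Of 38 further genes known to rise in activated microglia, 33 were measured, and 5 were higher in mutants, 0 lower and 28 not past the threshold (median 0.29), against 0.419% of all probe sets called higher. They were Ctsd, a lysosomal protease (0.68), the chemokines Ccl6 (0.85) and Ccl9 (2.16), Cd74, the class II invariant chain (1.11), and Lgals3bp (0.50). After kainate, averaged over genotypes, 0 of these 33 and 0 of the 25 identity genes passed in limma, with 4 and 3 at an unadjusted p under 0.05, shares near the 11.9% of all probe sets. For the lists that follow, the share of all probe sets at an unadjusted p under 0.05 was 5.98% for genotype and 11.9% for kainate. Of 14 measured partners of the activation motif adaptors and Fc receptors, 0 passed for genotype (2 at an unadjusted p under 0.05), and 7 had mean levels under 3.5. Of 14 measured genes of CD14 and toll-like receptor signalling, 0 passed for genotype (3 at an unadjusted p under 0.05), and 0 passed for kainate (2 at an unadjusted p under 0.05). The ligands were not called either: Csf1, which activates CSF1R, differed by 0.28 (adjusted p = 0.63) and Cx3cl1, which encodes fractalkine, by -0.23 (adjusted p = 0.63).

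Markers of other cells that could hold these transcripts were read beside the members. For blood monocytes and granulocytes (18 genes), border macrophages (7) and lymphocytes (15), 0 genes passed for genotype in limma, at adjusted p under 0.05 or unadjusted p under 0.05, with a median of -0.08 for each list. The mean levels of these lists overlapped between mutants and controls. Ccr2, the receptor that draws monocytes into tissue, had a mean level of 2.87, and 14 of the 18 monocyte and granulocyte genes were under 3.5. So were 4 of the 7 border macrophage genes and 10 of the 15 lymphocyte genes. At such levels a change could go unseen. Of 12 astrocyte markers 2 were higher in mutants (0.419% of all probe sets were) and 10 did not pass, with a median of 0.19. The 2 were Gfap (1.62, adjusted p = 0.00554) and Clu (0.47, adjusted p = 0.00476), and 10 of the 12 differences were above 0. The list mean was 8.75 to 9.06 in mutant kainate and 8.79 to 8.91 in mutant saline, against 8.40 to 8.70 in control kainate and 8.52 to 8.61 in control saline arrays. Among 17 neuron markers Wfs1, of CA1 pyramidal cells, was lower (-1.04, limma adjusted p = 0.0082), where 0.193% of all probe sets were. The other 16 did not pass, and 5 of the 17 differences were above 0 (median -0.15). Dcx went the other way at 0.44 (limma adjusted p = 0.141), with every mutant array above every control array. Of 10 oligodendrocyte markers 0 passed (0 at an unadjusted p under 0.05). Of 11 endothelium and blood markers 0 passed for genotype (2 at an unadjusted p under 0.05), and 9 of 11 differences were above 0. Their list mean was 6.04 to 6.27 in mutant kainate and 5.88 to 5.95 in mutant saline, against 5.82 to 5.98 in control kainate and 5.82 to 5.85 in control saline arrays, without overlap of the genotypes within a treatment. Over both genotypes, the haemoglobin gene Hba-a1 was higher after kainate (0.53, limma adjusted p = 0.0372), where 0.531% of all probe sets were. The other 10 markers of its list did not pass. The neuronal Map2 was lower (-2.06, limma adjusted p = 0.0167), where 0.411% of all probe sets were. The other 16 neuron markers did not pass, and 8 of the 17 differences were above 0 (median -0.03). The part of these cell types in the microglial values was not tested.

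**Figure D5:**
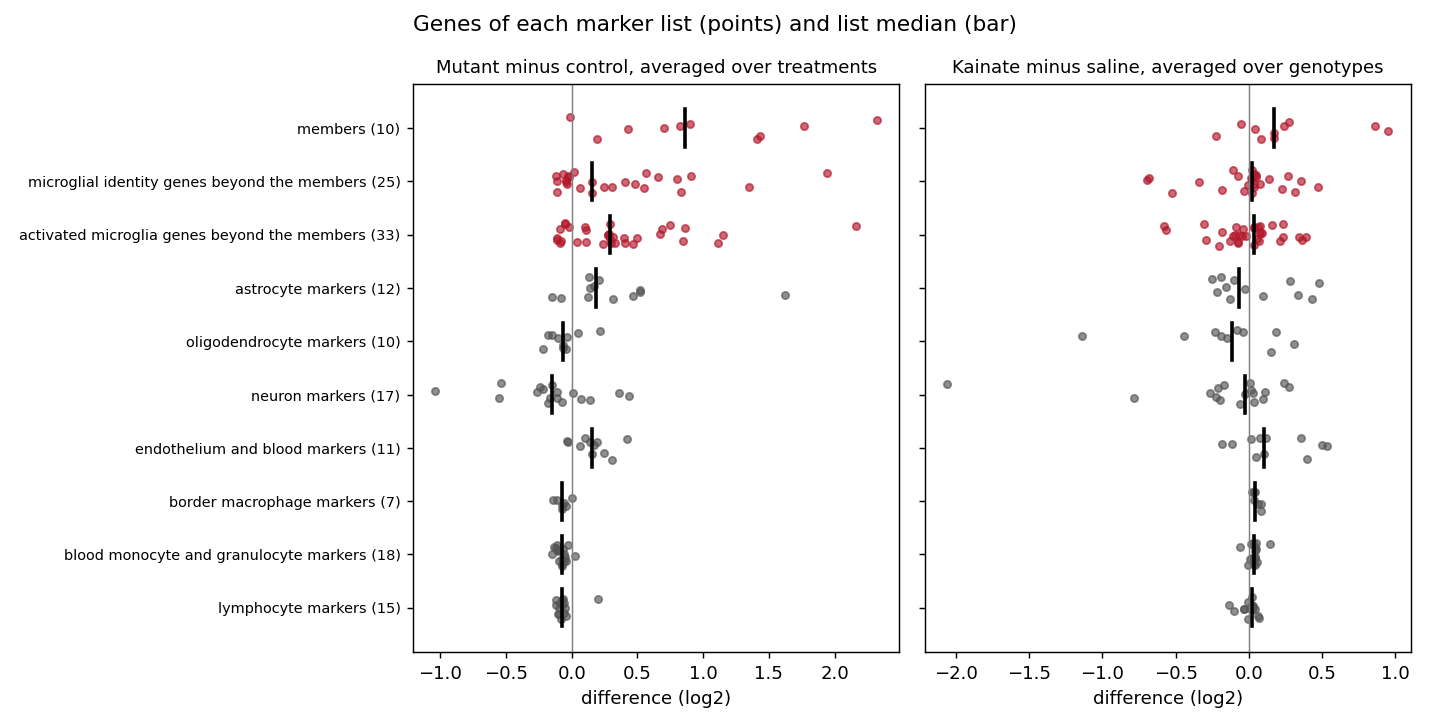
Differences on the log2 scale for the genes of each marker list (points, number measured in brackets) with the list median as a bar, for mutant minus control (left) and kainate minus saline (right). The members have a median of 0.86 on the left, and the lists of border macrophages, blood monocytes and granulocytes, and lymphocytes lie close to 0 in both panels.

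The genes whose pattern over the 12 arrays was most like the mean of the members were Ctss (Pearson r = 0.974), the complement subunit C1qb (0.965), the linker histone H1f2 (0.960), Cd53 (0.945) and Itgb5 (0.942). Next came Psmb8, an immunoproteasome subunit (0.937), C1qc (0.929), the protease Ctsc (0.924), S100a13 (0.922) and C1qa (0.920). Over deviations from the group means the same genes correlated with the members at 0.743 for Ctss, 0.686 for Itgb5, 0.685 for Ctsc, 0.666 for Cd53, 0.651 for Psmb8 and 0.566 for S100a13, and at 0.382 for C1qb, 0.256 for C1qc, -0.147 for H1f2 and -0.199 for C1qa.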

How the data were processed

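RNA of 12 hippocampal pools was measured on Affymetrix arrays. The deposited values are log2 expression per probe set. The submitters' processing notes name GCRMA and R 2.4.1, run by the authors. Background removal by GCRMA can compress dim probe sets towards a floor, and whether all arrays were processed together is not given in the sources used here. Symbols came from the platform annotation: of 12422 probe sets (66 control probe sets left out), 10833 had 1 symbol, 396 several and 1193 none, and 10817 matched RefSeq (GRCm38.p6) by Entrez identifier. All 12422 were fitted, with no filter on level, using limma 3.58.1 in R 4.3.3 with 1 mean per group, tested two-sided and adjusted by Benjamini-Hochberg at 0.05; the fit was tested on simulated data. Intervals are 95% intervals of that fit. Errors are SE of the fit or SD over 3 arrays, whose number limits the precision. The labels call the replicates biological.

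The members and the gene lists were chosen with earlier results of these data known. All members were named; of the other lists, genes past the threshold (at most the 5 smallest p per list for kainate effects) and up to 4 of the largest genotype differences could be named. The brightest probe set stood for a gene. Itgb5, Ctsd, Ccl6 and Lgals3bp were named because they passed, and Spi1, Itgam and Ccr2 after their values were seen. Alternatives were the replicate block, replicate 1 as a batch, replicates 2 and 3 only, other normalisations, a level filter, a variance trend, array weights by 2 methods (the second chosen after seeing the first), only the arrays compared, and each array left out.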

Additional observations from a re-analysis of the deposited data

Results flagged for a closer look

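A probe set outside the rule, because it carries both symbols Lyz1 and Lyz2, also stood higher in mutants. It had 5.35, 4.96 and 5.22 in mutant kainate and 5.36, 6.35 and 6.75 in mutant saline arrays, against 3.27, 3.53 and 3.18 in control kainate and 3.24, 4.63 and 4.05 in control saline arrays. Its difference averaged over treatments was 2.02 (SE 0.26), without overlap between genotypes, and it is given as a value without a test. After kainate it stood at -0.98 in mutants (SE 0.37, limma adjusted p = 0.674) and -0.65 in controls (SE 0.37, limma adjusted p = 0.729), where the member Lyz2 probe set stood at 0.08 and 0.09.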

How the results depend on the processing

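The averaged genotype differences of the 7 genes higher in mutants kept their direction under 20 or 21 alternatives each, and Cd52 reached 2.75 with array weights. Of the other 3, against 0.43 for Aif1, 0.19 for Cx3cr1 and -0.01 for Fcer1g with all arrays, Aif1 stood at 0.19 without control saline replicate 1 and 0.28 with replicates 2 and 3 only, Cx3cr1 at 0.29 without mutant saline replicate 1 and 0.31 with array weights, and Fcer1g turned sign, from -0.09 without control kainate replicate 1 to 0.11 without control kainate replicate 3 and 0.15 with array weights. The median over genes was 0.66 with the mean of all probe sets of a gene and 0.78 to 0.92 with each array left out; under kainate it was 0.84 to 1.13, lowest without control kainate replicate 3. The number of member probe sets called for kainate over both genotypes was 1 with quantile normalisation, 4 with replicates 2 and 3 only and 0 to 3 with each array left out. In mutants it was 1 with replicates 2 and 3 only and 0 to 1 with each array left out, and in controls 0 to 1. Array weights by the default method of limma (REML), the planned setting, stopped before reaching their tolerance. They called 8 member probe sets for kainate over both genotypes, 8 in mutants, 5 in controls and 2 in the interaction, among 4276, 3182, 3347 and 1204 of all probe sets, and 8537 of all probe sets for genotype under saline. Gene by gene weights, chosen after seeing that failure and those counts, called 5, 7, 2 and 0 member probe sets among 2036, 1619, 380 and 8 of all probe sets. Neither weighting is preferred here. The interaction count was 0 under the other alternatives. With the replicate block, 2 member probe sets were called for kainate over both genotypes and 0 in each genotype and in the interaction; same-numbered arrays deviated with correlations of -0.01 to 0.85. The numbers were not taken as pairs because the labels state no shared batch and the lowest, in replicate 3, was below 0.1, although 11 of 12 arrays correlated best with their own number, a hint from the data that a number marks shared handling. The averaged activation minus homeostatic difference was 0.84 without Cx3cr1, 0.71 without Cd52 and 1.42 without Cd14, and 1.02 to 1.16 with each array left out. In mutants the adjusted p for kainate ran from 0.00591 to 0.415 for Cd52 and from 2.01e-05 to 1 for Cx3cr1. Cx3cr1, Fcer1g and, in controls, Cd52 lay near background, which limits what their values can show.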
